A study of Mus musculus with 12 samples.

Results

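The GIMAP family of GTPases was measured in the RNA of CD4+ T cells without FOXP3. Its 8 members on the gene list, *Gimap1*, *Gimap3*, *Gimap4*, *Gimap5*, *Gimap6*, *Gimap7*, *Gimap8*, and *Gimap9*, were taken by name from the 26608 genes counted in every library. GIMAP proteins (GTPases of the immunity-associated proteins) share a GTP-binding domain related to that of the septins, and most sit on membranes of the endoplasmic reticulum, mitochondria, or lysosomes. They are abundant in resting lymphocytes, and loss of several of them in rodents shortens the survival of mature T cells. In mice the genes lie side by side in 1 cluster. In mice with severe disease after loss of *Tet2* and *Tet3*, *Gimap5* was higher than in WT with TMM scaling. On that scale *Gimap6*, *Gimap8*, and *Gimap9* were lower. When general T cell genes set the scale, none of these was called lower, and *Gimap9* turned. With terms for neutrophil and B cell transcripts in the fit, only *Gimap6* kept its call. The family as a whole took a like share of the reads, while its summed level with TMM scaling was lower in severe disease.

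The cells were CD4+ YFP(FOXP3)- T cells from spleen pooled with cervical and inguinal nodes of mice at 14 weeks of age, and 1 library was made per mouse for 4 mice of each group, WT, DKO-moderate, and DKO-severe. WT mice carried Foxp3Cre with intact *Tet2* and *Tet3*, and both DKO groups carried Foxp3-Cre with floxed alleles of *Tet2* and *Tet3* (Tet2/3 fl/fl), genes for enzymes that oxidize methylated cytosine. The DKO mice were classed as moderate or severe by the study from the number of leukocytes in spleen and lymph nodes, so the class is itself a measure of disease. Foxp3-Cre acts in cells that have switched on *Foxp3*, and the YFP-negative gate keeps cells that have lost FOXP3 together with T cells that never had it, so a DKO library can hold cells that deleted the genes and cells that did not. In such bulk RNA, fewer cells of a type and less RNA per cell cannot be told apart.

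Each library held 29254260 to 42133536 reads on genes. CPM are a gene's reads relative to the scaled total of its library, with TMM as the scaling, a method that adjusts for differences in RNA composition. The quasi-likelihood test of edgeR was run in 1 fit of all 12 libraries, p-values were adjusted over the 16035 genes tested, and a gene was called where its adjusted p was under 0.05. All 8 GIMAP genes were among the genes tested. Over the whole gene, *Tet2* was at 43.3 to 62.2 CPM (WT), 34.8 to 57.8 (DKO-moderate), and 56.7 to 65.8 (DKO-severe), and *Tet3* at 167 to 210.4, 90.3 to 185, and 87.8 to 102, counts that include exons outside the floxed part. General T cell genes were high in every library, with a summed level of 13 genes of 7553 to 8527 CPM (WT), 7120 to 8099 (DKO-moderate), and 5341 to 6254 (DKO-severe). The summed level of 10 neutrophil markers was 0.0273 to 1.98 CPM (WT), 0.186 to 8.50 (DKO-moderate), and 10.1 to 2240 (DKO-severe). That of 10 B cell markers was 6.81 to 242, 21.8 to 47.5, and 70.9 to 421 CPM. The high values came from DKO-severe 1 and 2 for the neutrophil list (2240 and 824 CPM, against 23.7 and 10.1 in DKO-severe 3 and 4) and from WT 3 for the B cell list among WT.

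In the mouse genome (GRCm38, the build named mm10 by the authors), the members span 48647234 to 48770851 on chromosome 6, which is 124 kb. All are annotated as protein coding in GENCODE. Their order along the chromosome is *Gimap8* (48647234 to 48660875, plus strand), *Gimap9* (48676129 to 48679114, plus strand), *Gimap4* (48684549 to 48692060, plus strand), *Gimap6* (48701582 to 48708225, minus strand), *Gimap7* (48718621 to 48724636, plus strand), *Gimap1* (48739054 to 48743795, plus strand), *Gimap5* (48746197 to 48754210, plus strand), and *Gimap3* (48764464 to 48770851, minus strand). *Gimap3* and *Gimap5* are near-identical neighbours. Their coding sequences matched at 90.4% of aligned bases, against 55.8% to 73.9% for the other pairs, and 190 windows of 50 bases occur in the transcripts of both, 9.06% of the windows of *Gimap3* and 9.98% of those of *Gimap5*. The authors kept only reads with a single position, so reads that cannot be assigned to either gene are missing and the levels of both are uncertain. The paired reads were longer than these windows, so the share of windows is not the share of reads lost, which was not measured. No window of this length was shared between any other members.

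The promoters of the 4 members that passed the threshold between DKO-severe and WT are shown here for their CpG sites, on which TET enzymes act when methylated, as RefSeq gives them on GRCm38.p6, from 250 bases before to 50 bases after the transcription start. They are written 5′ to 3′ on the strand of the gene, and capitals mark CpG sites. *Gimap8* has a second RefSeq start further downstream, and its upstream promoter is shown.
*Gimap5* promoter (chr6:48745947-48746246, plus strand): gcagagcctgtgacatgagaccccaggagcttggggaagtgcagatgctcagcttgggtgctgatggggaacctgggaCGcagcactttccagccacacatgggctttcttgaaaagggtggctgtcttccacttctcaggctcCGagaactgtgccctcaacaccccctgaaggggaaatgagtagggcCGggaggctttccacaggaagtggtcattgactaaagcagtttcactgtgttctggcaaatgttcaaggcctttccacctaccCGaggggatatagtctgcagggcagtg
*Gimap6* promoter (chr6:48708195-48708494, minus strand): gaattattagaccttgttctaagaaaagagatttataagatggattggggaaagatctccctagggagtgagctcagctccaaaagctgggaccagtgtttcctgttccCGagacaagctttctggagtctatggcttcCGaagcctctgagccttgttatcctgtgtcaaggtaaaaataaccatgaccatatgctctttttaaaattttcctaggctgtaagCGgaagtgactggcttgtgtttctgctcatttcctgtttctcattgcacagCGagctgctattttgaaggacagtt
*Gimap8* promoter (chr6:48646984-48647283, plus strand): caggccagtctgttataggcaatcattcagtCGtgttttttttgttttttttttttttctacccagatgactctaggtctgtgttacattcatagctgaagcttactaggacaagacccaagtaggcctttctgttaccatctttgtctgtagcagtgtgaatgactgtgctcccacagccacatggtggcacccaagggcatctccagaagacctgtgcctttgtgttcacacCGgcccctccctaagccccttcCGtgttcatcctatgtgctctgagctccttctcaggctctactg
*Gimap9* promoter (chr6:48675885-48676184, plus strand): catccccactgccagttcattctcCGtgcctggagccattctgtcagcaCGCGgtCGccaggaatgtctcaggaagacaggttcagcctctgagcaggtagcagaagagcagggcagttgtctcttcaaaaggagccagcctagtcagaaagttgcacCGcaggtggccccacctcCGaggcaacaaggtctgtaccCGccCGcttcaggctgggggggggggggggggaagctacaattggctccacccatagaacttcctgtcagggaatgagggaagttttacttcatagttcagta
The promoters of *Gimap5* and *Gimap6* hold 4 CpG sites each, that of *Gimap8* holds 3, and that of *Gimap9* holds 8. The median over 32851 promoters of this length was 7, so only *Gimap9* lies above it. The promoters of *Gimap1* and *Gimap4* hold 4 CpG sites and those of *Gimap3* and *Gimap7* hold 2. All promoters were also searched on both strands for short letters that transcription factors of T cells are known to bind. The RUNX letters TGTGGT were found in the promoters of *Gimap1*, *Gimap4*, and *Gimap7*, and in 16.8% of all promoters. The TCF/LEF letters CTTTGA were found in those of *Gimap4* and *Gimap7*, and in 16.0% of all. The FOXO letters GTAAACA were found in that of *Gimap3*, and in 3.65% of all. The ETS letters CCGGAA (14.9% of all promoters), the AP-1 letters TGANTCA (7.81%), the KLF letters GGGTGTG (7.95%), and the GATA letters AGATAA (11.2%) were found in no GIMAP promoter of this length. The 4 printed promoters held none of these letters. DNA methylation was not analysed here.

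As a whole, the family took a like share of the reads in the 3 groups. Reads on the 8 genes made up 0.347% to 0.386% of the reads on genes (WT), 0.356% to 0.396% (DKO-moderate), and 0.344% to 0.384% (DKO-severe), and these ranges overlap. On the TMM scale the summed level was 3899 ± 198 CPM (WT), 3821 ± 139 (DKO-moderate), and 3364 ± 117 (DKO-severe), each with its SD (n = 4). The DKO-severe libraries, at 3267 to 3519 CPM, lay below those of WT, at 3651 to 4096 CPM, without overlap. The TMM factors were 0.922 to 0.950 in WT and 1.05 to 1.09 in DKO-severe, and the lower summed level in DKO-severe is not seen in the share of reads. The makeup of the family differed between the groups on either scale.

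**Figure D1:**
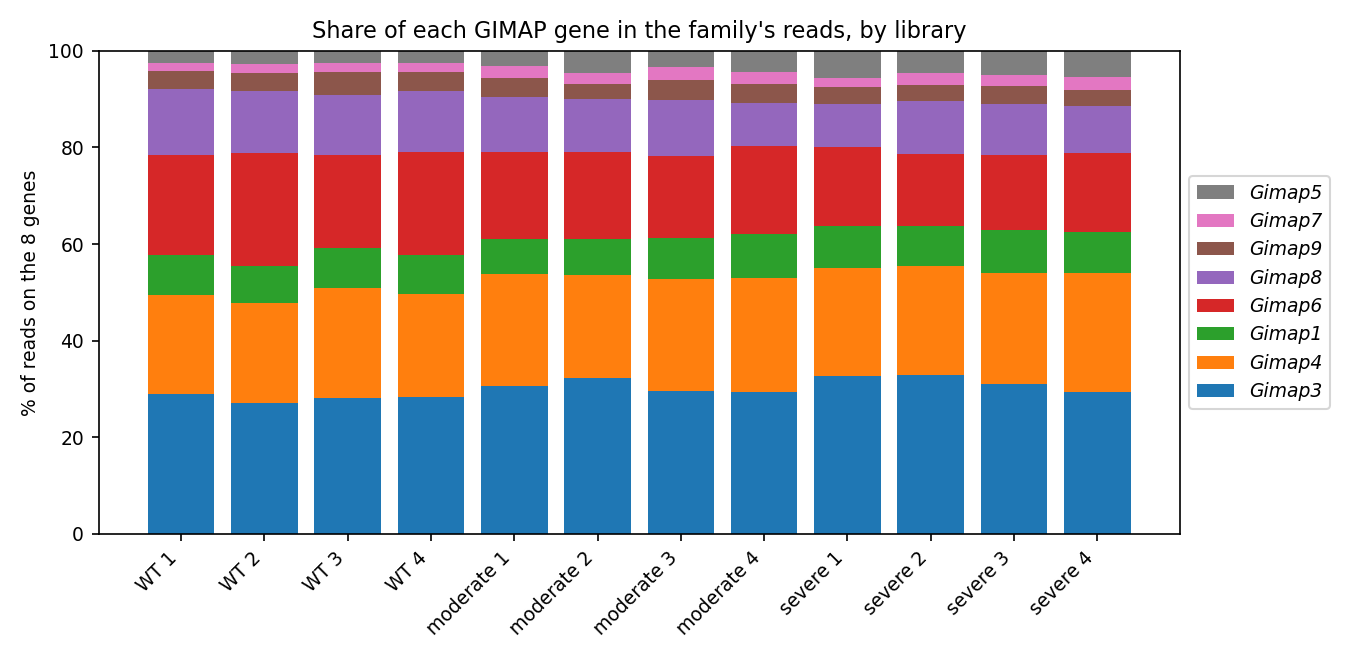
Each bar is 1 library and the vertical axis is the percent of the reads on the 8 GIMAP genes that fell on each gene, from 0 to 100. The share of *Gimap5*, at the top, was 2.56% to 2.65% (WT), 3.12% to 4.58% (DKO-moderate), and 4.53% to 5.55% (DKO-severe), and the share of *Gimap6* was 19.4% to 23.4%, 16.8% to 18.3%, and 14.9% to 16.3%.

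Levels per kb of exon sequence used the joined exons of all annotated transcripts of a gene. That length was 3496 bases for *Gimap6* and 1837 for *Gimap4*, where the transcripts searched for shared windows had 1594 and 1804. The ranks between genes therefore depend on the annotation, and ranks by transcript length were not computed. With the joined exons, *Gimap4* and *Gimap3* stood highest in WT, with mean levels of 450 and 426 CPM per kb, and their libraries overlapped. They were followed by *Gimap6* at 237, *Gimap8* at 136, *Gimap1* at 102, and *Gimap9* at 95.6 CPM per kb, of which *Gimap1* and *Gimap9* overlapped. *Gimap7* at 30.3 and *Gimap5* at 24.5 CPM per kb were the lowest, with no overlap between them. In DKO-moderate the ranks were the same, but *Gimap8* (111) overlapped *Gimap1* (101), and *Gimap7* (40.8) overlapped *Gimap5* (35.7). In DKO-severe, *Gimap5* (41.8) stood above *Gimap7* (34.2) and *Gimap1* (94.8) above *Gimap8* (90.4), with overlap in both pairs. By this length, *Gimap4*, *Gimap3*, and *Gimap6* kept the 3 highest ranks in every group.

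Between DKO-severe and WT on the TMM scale, *Gimap5* was higher and *Gimap6*, *Gimap8*, and *Gimap9* were lower. *Gimap5* stood at 170% of its WT level, *Gimap6* at 64.0%, *Gimap8* at 66.6%, and *Gimap9* at 74.9%. Thus 1 of the 8 members rose and 3 fell, where 26.6% of all tested genes were higher and 25.9% lower, so the counts show nothing particular to the family. The libraries of the 2 groups did not overlap for 5 of the 8 members, the 4 above and *Gimap4*, against 51.9% of all genes. The median log2 fold change over the 8 members was -0.10, and over all genes tested -0.01.

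*Gimap5* encodes a lysosomal member of the family that is needed for the survival and quiescence of T cells. WT 1 to 4 held 105, 106, 94.7, and 102 CPM. DKO-moderate 1 to 4 held 126, 173, 122, and 172 CPM, and DKO-severe 1 to 4 held 181, 159.6, 173, and 179 CPM. Every DKO library lay above every WT library. The DKO-moderate libraries formed a low pair (1 and 3) and a high pair (2 and 4), of which the high pair fell within the range of DKO-severe. The log2 fold change was 0.77 in DKO-severe against WT (SE 0.117, adjusted p = 0.00021 by edgeR) and 0.54 in DKO-moderate against WT (SE 0.117, adjusted p = 0.00834 by edgeR). DKO-severe and DKO-moderate differed by 0.23 (SE 0.116), which missed the threshold (adjusted p = 0.177 by edgeR). The same split of DKO-moderate was seen in 14 genes of naive T cells, whose summed level was 5917 and 6434 CPM in DKO-moderate 1 and 3 and 3848 and 3897 CPM in DKO-moderate 2 and 4. Its part in the level of *Gimap5* was not tested. The pairs also differed in 4 Y-linked genes, which mark male mice, with a summed level of 556 and 461 CPM in DKO-moderate 1 and 3 and 0.0 and 0.0265 CPM in DKO-moderate 2 and 4. In the other groups these genes were at 0.0 CPM in WT 2 and 0.571 CPM in DKO-severe 3 and at 370 to 463 CPM in the remaining libraries. *Gimap5* in WT 2 (106 CPM) was the highest of WT, where the other libraries held 94.7 to 105 CPM. In DKO-severe 3 (173 CPM) it lay among the other libraries of that group, at 159.6 to 181 CPM. With a term for the Y-linked transcripts in the fit, *Gimap5* was at 0.77 in DKO-severe against WT (adjusted p = 8.62e-05 by edgeR) and 0.47 in DKO-moderate against WT (adjusted p = 0.0112 by edgeR).

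*Gimap6* encodes a cytosolic member that binds proteins of the Atg8 family and takes part in autophagy. Its WT libraries held 853, 939, 708, and 812 CPM, its DKO-moderate libraries 723, 679, 625, and 688 CPM, and its DKO-severe libraries 534, 523, 529, and 534 CPM. DKO-severe was the tightest of the groups, with a coefficient of variation of 1.02% against 11.6% in WT, and it lay below all other libraries. DKO-moderate lay between and overlapped WT only through its first library and WT 3. The log2 fold change was -0.64 in DKO-severe against WT (SE 0.089, adjusted p = 0.000109 by edgeR) and -0.29 in DKO-moderate against WT (SE 0.0887, adjusted p = 0.0441 by edgeR). The call in DKO-moderate was lost in 6 of 12 fits without 1 library, those without WT 1, WT 2, WT 4, DKO-moderate 2, DKO-moderate 3, or DKO-severe 1, at adjusted p-values by edgeR of 0.0562 to 0.132. It was also lost with library size alone (-0.21, adjusted p = 0.121 by edgeR), scaling by the summed general T cell genes (-0.22, 0.157), no filter on low counts (0.0636), only the 2 groups in the fit (0.0853), and the replicate block (0.0626). *Gimap6* was the only member past the threshold between the DKO groups, at -0.36 in DKO-severe against DKO-moderate (SE 0.0887, adjusted p = 0.017 by edgeR), although this call was lost without DKO-moderate 1 (adjusted p = 0.0536 by edgeR), DKO-severe 3 (0.0555), or DKO-severe 4 (0.0525), and the value turned to 0.06 with the T cell scaling.

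**Figure D2:**
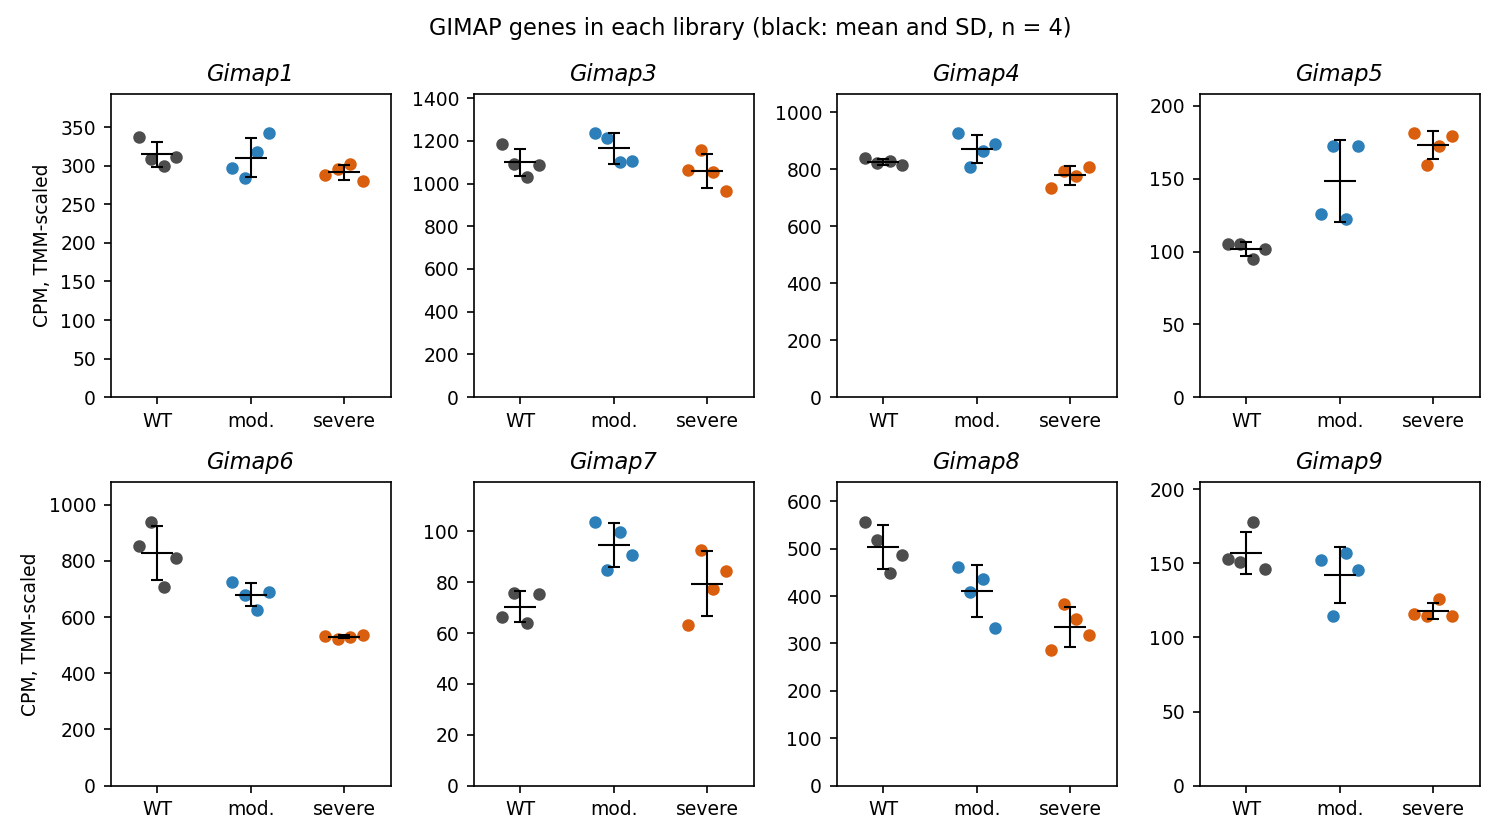
Each panel is 1 gene, the vertical axis is its TMM-scaled CPM from 0, points are libraries in the order of their replicate numbers, and black bars are the mean and SD of 4 libraries. *Gimap5* rose through DKO-moderate to 159.6 to 181 CPM in DKO-severe, *Gimap6* stood at 523 to 534 CPM there, below every other library, and *Gimap1* and *Gimap3* overlapped in all groups.

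*Gimap8* encodes the largest member, with several GTP-binding domains in 1 protein. WT held 557, 519, 448, and 486 CPM, DKO-moderate 460.3, 409, 436, and 333 CPM, and DKO-severe 286, 383, 352, and 317 CPM. DKO-severe lay below WT without overlap, and DKO-moderate overlapped both. The log2 fold change was -0.59 in DKO-severe against WT (SE 0.12, adjusted p = 0.00157 by edgeR). In DKO-moderate against WT it was -0.29 (SE 0.12, adjusted p = 0.112 by edgeR), which missed the threshold. Between the DKO groups it was -0.29 (SE 0.12, adjusted p = 0.1 by edgeR), which missed the threshold. Of the 12 fits without 1 library it was called in 1, that without DKO-moderate 4 (-0.34, adjusted p = 0.0416 by edgeR).

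For *Gimap9*, another small member, WT held 153, 151, 178, and 146 CPM, DKO-moderate 152, 115, 157, and 145 CPM, and DKO-severe 116, 114, 126, and 114 CPM. The DKO-severe libraries lay below WT, while 3 of the 4 DKO-moderate libraries were near the WT values and DKO-moderate 2 was at the level of DKO-severe. The log2 fold change was -0.42 in DKO-severe against WT (SE 0.101, adjusted p = 0.00463 by edgeR) and -0.14 in DKO-moderate against WT (SE 0.101, adjusted p = 0.359 by edgeR). *Gimap9* therefore passed the threshold in the severe group, and its difference between the DKO groups, -0.28, did not (adjusted p = 0.0733 by edgeR), except without DKO-moderate 2 (-0.37, adjusted p = 0.0117 by edgeR). With the T cell scaling the value against WT turned to 0.05.

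*Gimap7*, whose protein stimulates the GTPase activity of other members, was higher in DKO-moderate. Its levels were 66.3, 75.9, 63.9, and 75.5 CPM (WT), 104, 84.7, 99.9, and 90.5 CPM (DKO-moderate), and 63.0, 92.8, 77.5, and 84.5 CPM (DKO-severe). DKO-moderate lay above WT without overlap, and DKO-severe spread over both. The log2 fold change was 0.43 in DKO-moderate against WT (SE 0.116, adjusted p = 0.0251 by edgeR), a call lost without WT 1 (adjusted p = 0.0764 by edgeR), WT 3 (0.0639), DKO-moderate 1 (0.0571), or DKO-moderate 3 (0.051). In DKO-severe against WT it was 0.17 (SE 0.116, adjusted p = 0.222 by edgeR), but 0.36 and past the threshold with library size alone as the scale (adjusted p = 0.0182 by edgeR) and 0.27 without DKO-severe 1 (adjusted p = 0.0459 by edgeR), its lowest library in that group. DKO-severe against DKO-moderate gave -0.25 (SE 0.116, adjusted p = 0.134 by edgeR).

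The remaining 3 members, *Gimap1*, which is required for mature lymphocytes to survive, *Gimap3*, the near-copy of *Gimap5*, and *Gimap4*, a modulator of T cell death, passed the threshold in no comparison by edgeR with TMM and all libraries (*Gimap4* did between the DKO groups without DKO-moderate 2, at -0.20, adjusted p = 0.0458 by edgeR). For *Gimap1*, WT held 338, 309, 300.0, and 312 CPM, DKO-moderate 298, 284, 318, and 342 CPM, and DKO-severe 288, 295, 302, and 279.6 CPM. For *Gimap3*, WT held 1185, 1092, 1029, and 1088 CPM, DKO-moderate 1236, 1214, 1101, and 1106 CPM, and DKO-severe 1065, 1156, 1054, and 963 CPM. For both genes the 3 groups overlapped. For *Gimap4*, WT held 839, 821, 829, and 816 CPM, DKO-moderate 927, 808, 865, and 888 CPM, and DKO-severe 733, 796, 777, and 809 CPM. The highest DKO-severe library of *Gimap4* lay just below the lowest of WT. In DKO-severe against WT the log2 fold changes were -0.11 for *Gimap1* (SE 0.0755, adjusted p = 0.235 by edgeR), -0.05 for *Gimap3* (SE 0.0823, adjusted p = 0.611 by edgeR), and -0.09 for *Gimap4* (SE 0.0691, adjusted p = 0.312 by edgeR). The sign of all 3 turned positive when reads were scaled by library size alone, at 0.07, 0.13, and 0.10.

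**Figure D3:**
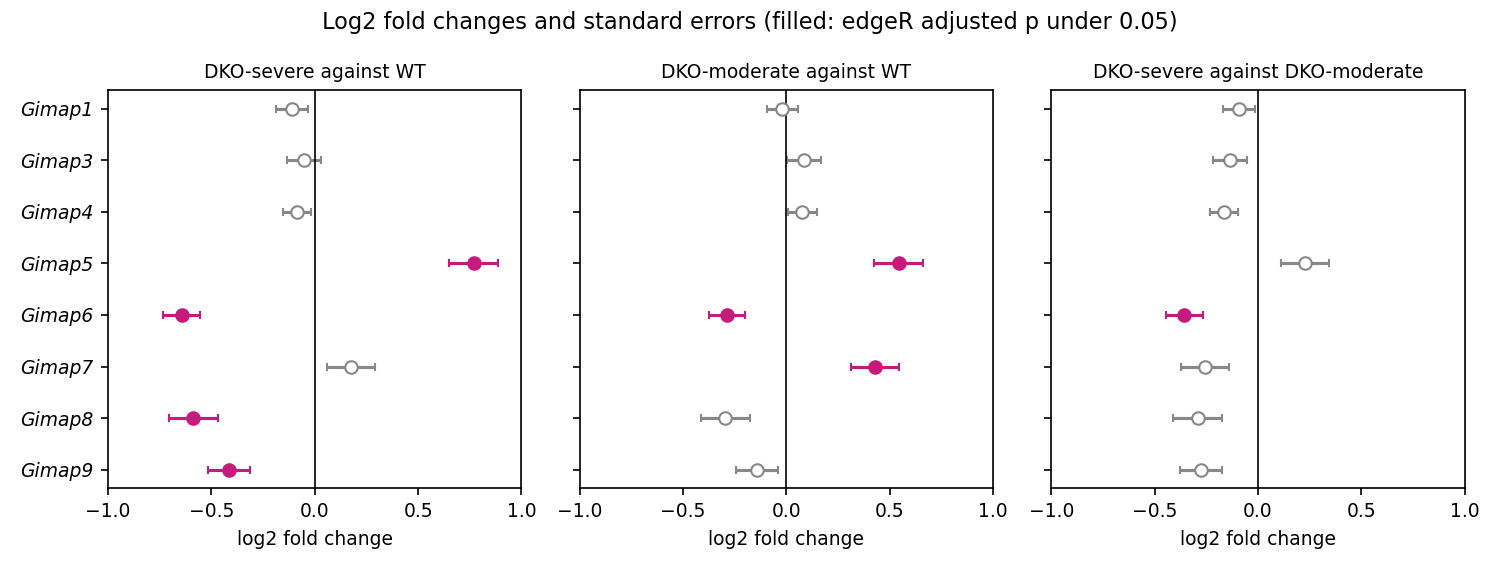
The horizontal axis is the log2 fold change from edgeR with TMM scaling, bars are standard errors, and filled points passed an adjusted p of 0.05. *Gimap5* (0.77) and *Gimap6* (-0.64) lie farthest from 0 in DKO-severe against WT, and with library size alone *Gimap1*, *Gimap3*, and *Gimap4* turn to the other side of 0 in that comparison.

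In DKO-moderate against WT, 2 members were higher (*Gimap5* and *Gimap7*) and 1 was lower (*Gimap6*), where 12.3% and 4.74% of all tested genes were. The libraries of 2 members did not overlap between these groups, against 24.8% of all genes. In DKO-severe against DKO-moderate, 1 member was lower and 0 were higher by edgeR, where 10.7% and 9.41% of all genes were. At an unadjusted p under 0.05, 5 members (*Gimap4*, *Gimap6*, *Gimap7*, *Gimap8*, and *Gimap9*) were lower and 0 were higher, where 18.7% and 18.0% of all genes were. limma voom called 5 members lower and 1, *Gimap5*, higher at its adjusted p, where it called 19.2% and 19.0% of all genes. The libraries of 1 member, *Gimap6*, did not overlap between the DKO groups, against 21.3% of all genes. The median log2 fold change over the members was 0.03 in DKO-moderate against WT and -0.21 in DKO-severe against DKO-moderate, beside 0.00 and -0.03 over all genes. DKO-moderate and DKO-severe were compared with the same WT libraries, so these comparisons are not independent of each other.

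*Gimap5* and *Gimap6*, the members farthest apart in DKO-severe against WT, can also be set side by side without any scaling, as a ratio of reads within each library, which does not show which of them moved. WT libraries held 0.123, 0.112, 0.134, and 0.125 reads of *Gimap5* for each read of *Gimap6*. The ratio was 0.174, 0.254, 0.196, and 0.251 in DKO-moderate and 0.340, 0.305, 0.327, and 0.336 in DKO-severe. The 3 groups did not overlap, and all DKO-moderate libraries lay between WT and DKO-severe. Measured against the summed reads of the family, an alternative chosen after the values were seen, the difference of DKO-severe from WT on the log2 scale was 0.98 for *Gimap5* (adjusted p = 7.6e-05 by edgeR), 0.38 for *Gimap7* (adjusted p = 0.0104 by edgeR), -0.43 for *Gimap6* (adjusted p = 0.000849 by edgeR), and -0.38 for *Gimap8* (adjusted p = 0.00895 by edgeR). On that scale *Gimap9* was at -0.21 and missed the threshold (adjusted p = 0.144 by edgeR).

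The direction of several members depended on the scale. Relative to TMM, the median of all genes in DKO-severe against WT moved from -0.01 to 0.18 with library size alone, to 0.21 with the summed GIMAP reads, and to 0.47 with the summed general T cell genes. Of the genes past the threshold, 49.3% were lower with TMM, 42.2% with DESeq2's size factors, 33.5% with library size, 31.5% with the GIMAP reads, and 15.4% with the T cell genes. *Gimap5* was higher under all of these scalings. *Gimap6* and *Gimap8* were below 0 under all of them, but with the T cell genes their log2 fold changes of -0.16 (adjusted p = 0.169 by edgeR) and -0.12 (adjusted p = 0.359 by edgeR) missed the threshold, and *Gimap9* turned to 0.05. On that scale *Gimap1* (0.36), *Gimap3* (0.42), *Gimap4* (0.39), and *Gimap7* (0.64) passed the threshold as higher, which with *Gimap5* made 5 members higher and 0 lower, where 48.7% and 8.84% of all genes were. In DKO-severe against DKO-moderate on that scale, 4 members were higher and 0 lower, where 37.6% and 2.78% of all genes were. The general T cell list itself was not steady. With TMM, 8 of its 13 genes fell in DKO-severe against WT and 2 rose, where 25.9% and 26.6% of all genes did.

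**Figure D4:**
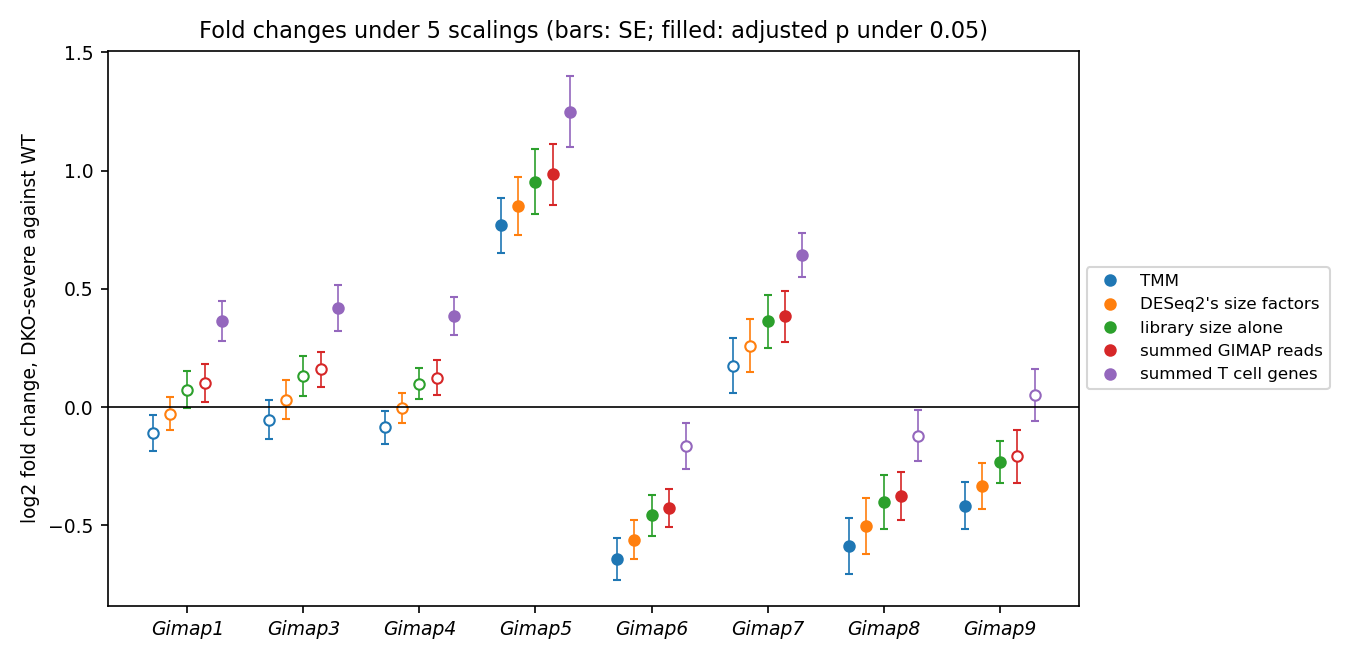
The vertical axis is the difference of DKO-severe from WT as a log2 fold change, colours are the 5 scalings, bars are standard errors, and filled points passed an adjusted p of 0.05. *Gimap5* lies above 0 and *Gimap6* and *Gimap8* below 0 under every scaling, whereas *Gimap1*, *Gimap3*, *Gimap4*, and *Gimap9* cross 0.

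Neutrophil and B cell transcripts also differed between the libraries, but not in step with each other. All 10 neutrophil genes rose in DKO-severe against WT, where 26.6% of all genes tested did. Of the 10 B cell genes only *Blk* passed the threshold, at 4.19 (adjusted p = 0.0224 by edgeR). *Gimap6* was at 534 and 523 CPM in the DKO-severe libraries with 2240 and 824 CPM of neutrophil genes and at 529 and 534 CPM in those with 23.7 and 10.1 CPM. In DKO-severe 1, the library with the most neutrophil transcripts, *Gimap4* (733 CPM), *Gimap7* (63.0 CPM), and *Gimap8* (286 CPM) were the lowest of their group and *Gimap5* (181 CPM) was the highest. DKO-severe 2, the next in neutrophil transcripts, went the other way for *Gimap5*, *Gimap7*, and *Gimap8*. There *Gimap7* (92.8 CPM) and *Gimap8* (383 CPM) were the highest of the group and *Gimap5* (159.6 CPM) was the lowest, while *Gimap4* (796 CPM) was neither. *Gimap5*, *Gimap6*, *Gimap8*, and *Gimap9* passed the threshold in DKO-severe against WT in each of the 12 fits that left out 1 library. Without WT 3, which had 242 CPM of B cell genes, their log2 fold changes were 0.73, -0.71, -0.64, and -0.35. With terms for the mean level of both lists in the fit, *Gimap6* kept its call (-0.66, adjusted p = 0.0133 by edgeR), while *Gimap5* (0.59, adjusted p = 0.0576 by edgeR), *Gimap8* (-0.44, adjusted p = 0.216 by edgeR), and *Gimap9* (-0.24, adjusted p = 0.354 by edgeR) lost theirs. The neutrophil term differs between WT and DKO-severe, whose summed neutrophil levels did not overlap, whereas the summed B cell levels of these groups overlapped. With both terms the number of all genes called was 2962, against 8428 without.

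GIMAP genes are also transcribed in B cells, NK cells, and CD8 T cells, so the markers of those and other cells were counted in the same fit. In DKO-severe against WT, 3 of 4 plasma cell, 4 of 7 monocyte and macrophage, 1 of 5 NK cell, and 1 of 4 erythroid genes rose, and 1 of 2 CD8 T cell and 1 of 3 tested endothelial genes fell. Over all genes tested, 26.6% were higher and 25.9% lower. The endothelial gene was *Pecam1* (-0.42, adjusted p = 0.00261 by edgeR), which naive T cells also express, and the defining markers *Cdh5*, *Kdr*, *Tek*, and *Emcn* were at a mean of 0.741 CPM or less in every group. Summed NK cell markers were at 25.9 to 50.6 CPM (WT), 77.3 to 209 (DKO-moderate), and 43.2 to 180 (DKO-severe), with *Klrb1c* past the threshold at a log2 fold change of 1.68 (adjusted p = 0.00784 by edgeR). Most of this sum was *Klrb1c* (means of 20.3, 95.7, and 65.2 CPM) and *Eomes* (17.4, 30.4, and 37.9 CPM). *Ncr1*, *Klre1*, and *Klra8* were at a mean of 2.01 CPM or less in every group. The paper lists *Klrb1c* among the Tfh-related genes that were higher in these DKO cells. Summed monocyte and macrophage markers were at 21.5 to 203, 63.6 to 117, and 136 to 560 CPM, summed plasma cell markers at 48.9 to 60.2, 73.9 to 103, and 122 to 173 CPM, and CD8 markers at 16.8 to 26.7, 3.13 to 8.52, and 1.03 to 13.2 CPM. Most of the plasma cell sum was *Xbp1*, with means of 53.3 (WT), 86.3 (DKO-moderate), and 136 CPM (DKO-severe). The other plasma cell genes, *Sdc1*, *Derl3*, and *Tnfrsf17*, were at a mean of 4.41 CPM or less in every group. In the monocyte and macrophage sum, *Ccr2* had means of 26.3 (WT), 65.3 (DKO-moderate), and 98.9 CPM (DKO-severe). Of the 4 Y-linked genes, which split each group as given for *Gimap5*, 0 passed the threshold against WT in either DKO group by edgeR, and 0 had an unadjusted p under 0.05. The part of the other markers in this paragraph in the GIMAP values was not tested.

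The naive T cell genes that passed the threshold fell further than any GIMAP gene. Of the 14 on the list, 13 were lower in DKO-severe against WT, with a median log2 fold change of -1.74, and 7 were lower in DKO-moderate. Over all genes tested, 25.9% and 4.74% were lower in these comparisons. The largest falls were those of *Dapl1* (-3.40, adjusted p = 0.000465 by edgeR) and *Actn1*, a cytoskeletal actinin (-3.23, adjusted p = 6.3e-05 by edgeR). *Gimap6*, the member that fell most, was at -0.64. Among the 13 general T cell genes, *Lat*, an adaptor of T cell receptor signalling, was among those that fell (-1.47, adjusted p = 1.5e-05 by edgeR), and the 2 that rose were *Zap70* (1.01, adjusted p = 5.3e-05 by edgeR) and *Cd3e* (0.29, adjusted p = 0.0129 by edgeR).

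GIMAP proteins are known to meet members of the Atg8 and BCL2 families, and septins share their fold. Over all genes tested, 26.6% were higher and 25.9% lower in DKO-severe against WT. Of 5 Atg8 family genes, 2 rose in that comparison. *Gabarapl1* rose from a mean of 4.59 CPM in WT to 19.9 in DKO-moderate and 37.2 in DKO-severe (3.02, adjusted p = 9.7e-05 by edgeR), and *Gabarap* by 0.21 (adjusted p = 0.0496 by edgeR). *Gabarapl2*, the reported partner of the *Gimap6* protein, was at 0.09 (adjusted p = 0.393 by edgeR). Of 12 BCL2 family genes, 7 rose and 1 fell. The rises were led by the death-promoting *Pmaip1* (4.00, adjusted p = 1.6e-05 by edgeR) and the survival gene *Bcl2a1b* (1.50, adjusted p = 4.2e-05 by edgeR), and the gene that fell was the survival gene *Mcl1* (-0.68, adjusted p = 0.00246 by edgeR). *Bcl2* itself was at 0.06 (adjusted p = 0.805 by edgeR). Of 11 septin genes tested, 7 rose, led by *Sept5* (4.55, adjusted p = 3.7e-05 by edgeR) and *Sept10* (2.78, adjusted p = 0.00067 by edgeR), and the 2 that fell were the abundant *Sept1* (-0.67, adjusted p = 0.000172 by edgeR) and *Sept6* (-0.57, adjusted p = 9.8e-05 by edgeR). Both leading rises were at low levels, from a mean of 0.256 CPM in WT to 6.13 in DKO-severe for *Sept5* and from 0.573 to 3.96 for *Sept10*. In DKO-moderate against WT, 1 Atg8, 4 BCL2, and 4 septin genes were higher, where 12.3% of all genes tested were.

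Around the GIMAP cluster, several genes rose far more than any member. Within 500 kb of either end, 52 genes are annotated, 23 are on the gene list, and 17 were tested. Of these, 8 were higher and 3 lower in DKO-severe against WT, 6 higher and 2 lower in DKO-moderate against WT, and 5 higher in DKO-severe against DKO-moderate. Over all genes tested, 26.6% were higher and 25.9% lower in DKO-severe against WT, and 12.3% and 4.74% in DKO-moderate against WT. Between the DKO groups 9.41% were higher and 10.7% lower. *Sspo*, the gene for the secreted matrix protein SCO-spondin, lies 146 kb before the cluster. Its WT libraries held 0.484 to 0.711 CPM, its DKO-moderate libraries 10.5, 27.5, 11.5, and 3.55 CPM, and its DKO-severe libraries 136, 62.7, 149.8, and 157 CPM. The 3 groups did not overlap, and the difference of DKO-severe from WT on the log2 scale was 7.65 (SE 0.637, adjusted p = 6.56e-06 by edgeR).

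*Repin1*, a zinc finger gene 48.2 kb before the cluster, rose by 2.91 on the log2 scale (SE 0.266, adjusted p = 9.83e-06 by edgeR). Its WT libraries were at 2.59 to 4.08 CPM, its DKO-moderate libraries at 10.2 to 20.2, and its DKO-severe libraries at 19.2 to 34.4, of which the last 2 ranges overlap. On the far side, 63.0 and 70.1 kb after the cluster, the membrane protein genes *Tmem176b* and *Tmem176a* rose by 2.51 (SE 0.29, adjusted p = 3.4e-05 by edgeR) and 2.98 (SE 0.323, adjusted p = 2.3e-05 by edgeR) on that scale. *Tmem176a* was at 5.96 to 8.19 CPM (WT), 10.5 to 23.0 (DKO-moderate), and 25.8 to 78.1 (DKO-severe), with no overlap. The other genes that rose were *Igf2bp3* (3.19, adjusted p = 4.4e-05 by edgeR), which stood at a mean of 6.98 CPM in DKO-moderate and 5.15 in DKO-severe, *Zfp467* (1.56, adjusted p = 8.23e-06 by edgeR), *Zfp862-ps* (0.99, adjusted p = 0.00908 by edgeR), and *Gm7932*, which stayed below 1 CPM in the mean of every group. *Krba1* (-0.78, adjusted p = 0.000462 by edgeR), *Gpnmb* (-1.14, adjusted p = 0.00763 by edgeR), and *Tra2a* (-0.44, adjusted p = 0.0279 by edgeR) fell.

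The tested genes nearest the cluster on the side before it gave smaller values. After the cluster the nearest tested gene was *Tmem176b*, whose rise is given above. *AI854703*, 13.5 kb before it, was at -0.16 (SE 0.178, adjusted p = 0.472 by edgeR) in DKO-severe against WT. *Zfp775*, 24.0 kb before it, was at -0.35 (SE 0.148, adjusted p = 0.0636 by edgeR) and passed the threshold as lower in DKO-moderate against WT (-0.53, adjusted p = 0.0289 by edgeR). None of the other annotated models that lie within the cluster, *Gm28053* and *Gimap1os* among them, is on the gene list. *Gm28053* overlaps *Gimap7*, *Gimap1*, and *Gimap5* on their strand, so how reads shared with it were counted is not known, since the annotation behind the counts is not given in the sources used here.

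**Figure D5:**
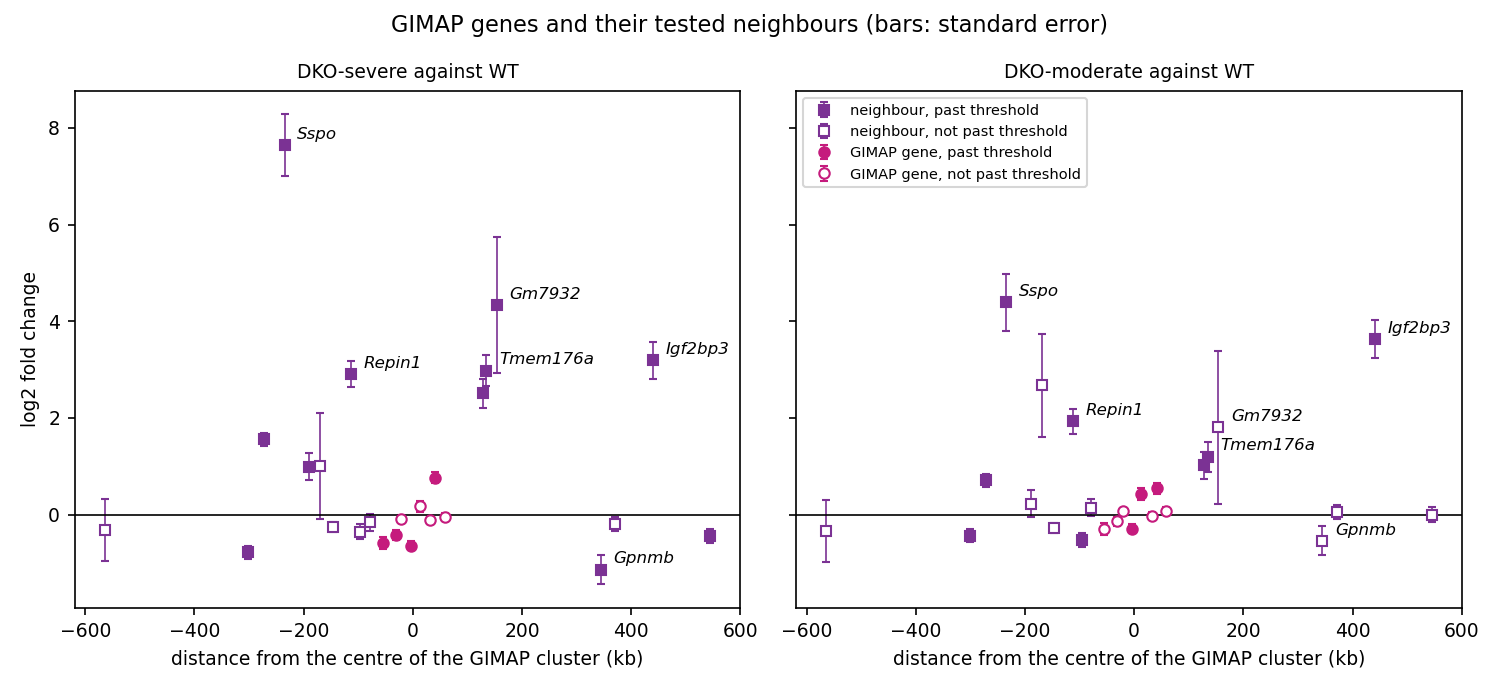
The horizontal axis is the distance of each gene from the centre of the GIMAP cluster in kb, the vertical axis is the log2 fold change with its standard error, circles are the 8 GIMAP genes, and squares are the 17 tested neighbours. The members lie between -0.64 and 0.77 in DKO-severe against WT, while *Sspo* (7.65), *Igf2bp3* (3.19), *Tmem176a* (2.98), and *Repin1* (2.91) lie above them on both sides.

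Among the members, levels over the 12 libraries followed no single pattern. Of 28 pairs of members, 18 had a positive Pearson r of log2 CPM, and r ranged from -0.87 (*Gimap5* with *Gimap8*) to 0.84 (*Gimap6* with *Gimap8*), with a median of 0.36. After subtraction of the group means r ranged from -0.66 to 0.66, with a median of 0.09. The libraries share their groups and their scaling factors, so these values are descriptions. Among 9988 genes with a mean of at least 5 CPM, those whose log2 CPM was most like the mean of the members over the 12 libraries were *Oas1b*, an interferon-induced gene (r = 0.97), *Slc25a22* (0.96), *Osbpl7* (0.94), *Xaf1* (0.94), and *Tmem149* (0.94). All 5 were lower in DKO-severe than in WT, at log2 fold changes of -0.49, -0.31, -0.23, -0.73, and -0.81, where 25.9% of all genes tested were lower. They were picked for their likeness over these same libraries, so their shared direction is not a separate result. After subtraction of the group means the 5 most alike were *Slc25a40* (0.95), *Poli* (0.95), *Rnf113a2* (0.93), *Ddb2* (0.93), and *Ddx50* (0.92).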

How the data were processed

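RNA from CD4+ YFP(FOXP3)- T cells was sequenced with directional libraries and paired reads, 1 library per mouse. Per the study, STAR 2.7.11 placed the reads on mm10, reads with several positions were dropped, and htseq-count assigned the rest to genes by strand (reverse setting). The values the authors deposited are raw counts, and the annotation behind them is not given in the sources used here. Records assigned to no gene (18.53% to 23.73% of a library) were left out.

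Groups came from the sample titles. Genes that reached 10 reads, summed over the 4 libraries of any group, were tested with edgeR 4.0.16 in R 4.3.3 (TMM, quasi-likelihood F test, Benjamini-Hochberg adjustment). The standard error is the size of the log2 fold change divided by the square root of F. Intervals are not given for CPM, and spread is that between mice. log2 CPM used a prior count of 2. Exon lengths and positions came from GENCODE M21 on GRCm38, which matched 22468 of the 26608 symbols, the 8 members among them. Promoters came from RefSeq on GRCm38.p6. Coding sequences were aligned with Biopython 1.88. Tables and plots used Python 3.11.15, pandas 2.3.3, numpy 2.4.6, and matplotlib 3.10.9. The fit was tested on simulated data.

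Alternatives were DESeq2 1.42.0, limma 3.58.1 (voom with sample weights), other scalings and filters, only the groups compared, a replicate block, terms for neutrophil and B cell or Y-linked transcripts, stricter thresholds, and each library left out. Named genes were all members, tested genes within 500 kb that passed the threshold in DKO-severe against WT or lie next to the cluster, up to 2 largest rises and 2 largest falls past the threshold of each list, and the 5 genes most like the members' mean by Pearson r. *Gabarapl2*, *Bcl2*, and the defining endothelial markers were named after their values were seen. The members and lists were chosen with earlier results of these data known. Libraries of 1 group differed beyond sampling noise (lowest chi-square per degree of freedom 22.9). Other assays of the study were not analysed here. The value of 1 gene of the marker lists is not reported here.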

Additional observations from a re-analysis of the deposited data

Results flagged for a closer look

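In DKO-severe against DKO-moderate, *Gimap6* passed the threshold of the test between the DKO groups, at a log2 fold change of -0.357 (SE 0.0887, adjusted p = 0.017 by edgeR), with all 4 DKO-severe libraries below all 4 DKO-moderate libraries. With library size alone it was at -0.25 (adjusted p = 0.0622 by edgeR).

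*Gimap9* in DKO-severe 3, at 125.7 CPM, stood apart from the other 3 DKO-severe libraries at 114 to 116 CPM, with a gap of 0.849 of the group's range, above Dixon's critical value for 4 samples. Of 24 groups of 4 libraries examined this was the 1 that stood apart, and chance alone marks about 1 in 20.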

How the results depend on the processing

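Of the values for single members, 504 of 576 under the alternatives kept their direction and their side of the threshold, 27 lost the call, 14 gained one, and 31 changed sign. The cause of each change was not tested. The number of members called in DKO-severe against WT was 4 (3 lower, 1 higher), and it was 5 with library size alone or without DKO-severe 1 (3 lower, 2 higher), 5 with the T cell scaling (all higher, where 48.7% of all genes were), 1 with the neutrophil and B cell terms and 0 when a doubling or halving (a log2 fold change of 1) was also required. Of all 16035 genes tested, 8428 were called in the main fit and 8216 with library size alone. The neutrophil and B cell terms left 2962 of them and the fold threshold 4397, and 7442 of 15867 genes were called without DKO-severe 1. In DKO-moderate against WT it was 3, with 1 at an adjusted p under 0.01, 0 with the fold threshold, and 1 to 3 without single libraries (1 without WT 1 or DKO-moderate 3). Among all genes, 2734 were called there, 1142 at an adjusted p under 0.01, and 1500 with the fold threshold. Without WT 1 the number was 1616, and without DKO-moderate 3 it was 2920. In DKO-severe against DKO-moderate it was 1, with 4 by the T cell scaling (all higher, where 37.6% of all genes were), 6 by limma voom (5 lower, 1 higher, where 19.2% and 19.0% of all genes were), 0 with library size alone, with the neutrophil and B cell terms, at an adjusted p under 0.01, or with the fold threshold, and 0 to 3 without single libraries (0 without DKO-moderate 1, DKO-severe 3, or DKO-severe 4, 2 without DKO-moderate 4, and 3 without DKO-moderate 2). Among all genes, 3217 were called there, 2907 with library size alone, and 168 with the terms. At an adjusted p under 0.01 the number was 926, and with the fold threshold 1411. It was 1646, 1997, and 1989 without DKO-moderate 1, DKO-severe 3, or DKO-severe 4, and 3670 and 3585 without DKO-moderate 4 or DKO-moderate 2. In that comparison 5 members had an unadjusted p under 0.05 by edgeR with TMM (all lower, where 18.7% of all genes were).

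These log2 fold changes changed sign. With library size alone, *Gimap1*, *Gimap3*, and *Gimap4* were at 0.074, 0.13, and 0.099 in DKO-severe against WT, and *Gimap1* was at 0.060 in DKO-moderate against WT and at 0.0145 in DKO-severe against DKO-moderate. With the T cell genes, *Gimap1*, *Gimap3*, *Gimap4*, and *Gimap9* were at 0.36, 0.42, 0.39, and 0.052 in DKO-severe against WT, *Gimap1* was at 0.040 in DKO-moderate against WT, and *Gimap1*, *Gimap3*, *Gimap4*, *Gimap6*, *Gimap7*, *Gimap8*, and *Gimap9* were at 0.32, 0.27, 0.25, 0.056, 0.15, 0.11, and 0.1445 in DKO-severe against DKO-moderate. With the summed GIMAP reads, an alternative chosen after seeing the data, *Gimap1*, *Gimap3*, and *Gimap4* were at 0.10, 0.16, and 0.13 in DKO-severe against WT and at 0.090, 0.047, and 0.021 in DKO-severe against DKO-moderate, and *Gimap1* was at 0.0125 in DKO-moderate against WT. *Gimap3* was at 0.031 by DESeq2 and 0.031 with its size factors in DKO-severe against WT, and at -0.083 to 0.024 without single libraries. *Gimap4* was at 0.025 with the neutrophil and B cell terms. *Gimap1* was at -0.0752 to 0.022 in DKO-moderate against WT without single libraries.

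With the replicate number as a block, the number of members called was 4 in DKO-severe against WT, 2 in DKO-moderate against WT (*Gimap6* at an edgeR adjusted p of 0.0626), and 1 in DKO-severe against DKO-moderate. Among all 16035 genes tested, 7794, 2201, and 2321 were called in these comparisons with the block. Libraries with the same number shared no more than others (residual r with a median of -0.0464 over 12 pairs, against -0.0245 over 36 pairs), so the numbers were not taken as pairs.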
